A study of Mus musculus with 6 samples.

Results

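The proteasome subunit genes were the 47 protein-coding genes, of 17524 genes in the deposited table, whose symbol began with Psma to Psmg followed by a digit, with the 3 immunoproteasome genes Psmb8, Psmb9 and Psmb10 left out. By symbol they comprised 15 genes of the core particle (8 Psma and 7 Psmb), 7 Psmc genes (ATPase), 14 Psmd genes (lid and base), 6 Psme genes (activators), and 5 Psmf and Psmg genes (inhibitor and assembly chaperones). Messenger RNA of the trigeminal ganglion, the sensory ganglion of the face and meninges, was profiled in wild-type mice by bulk RNA sequencing. The groups were 3 libraries from NTG-treated mice and 3 from vehicle-treated mice. The labels name the treatment only by the letters NTG, a usual abbreviation of nitroglycerin in mouse studies of migraine, and the sources used here give neither dose, time, age nor sex. Every animal was labelled WT, and nothing says whether a library came from 1 animal or a pool, and the p-values below therefore reflect only how far these libraries scatter, which may be technical.

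The proteasome degrades proteins that carry ubiquitin chains. Its core particle is a barrel of alpha rings, which gate the entrance, and beta rings, of which Psmb5, Psmb6 and Psmb7 carry the peptidase sites. A regulatory particle caps the barrel: its base holds a ring of ATPases (Psmc) that unfold the substrate, and its lid (most Psmd) removes the ubiquitin chain. Other caps, the Psme activators, open the gate without a ubiquitin requirement, and Psmg proteins help to assemble the core. Long-lived neurons depend on this system for protein turnover in the cell body and the axon.

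Not all names belonged to subunits. Psmc3ip encodes a meiotic recombination factor and Psme3ip1 a protein that binds Psme3. Psma8 encodes a testis-specific alpha subunit, and Psme2b is a near-copy of Psme2 whose coding sequence was 99.3% identical over 717 bases, so their reads cannot be told apart with confidence. Psma8, Psmc3ip and Psme2b had the lowest levels of the members: Psma8 had 7.33, 9.60 and 19.1 normalised reads in NTG, against 17.4, 19.6 and 26.4 in vehicle. The other 43 members were subunits, chaperones, activators and the inhibitor, and all 47 passed the filter on low values.

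Libraries held 19248592 to 23774244 recovered reads in NTG and 18813027 to 20191300 in vehicle. A count of 3 reads equals 0.126 to 0.159 CPM, depending on the library, which covers counting error only. Of the 13 sensory neuron markers all were in the table, with a summed level of 391594 to 407050.3 normalised reads in NTG and 407377 to 427073 in vehicle, and 2 of them rose and 5 fell. Markers of tissue next to the ganglion were read too. The 12 skeletal muscle markers summed to 1329 to 1486 in NTG and 1490.4 to 1666 in vehicle (0 rose, 7 fell). The 5 pituitary markers tested summed to 334 to 2383 in NTG and 1577 to 3917 in vehicle, ranges that overlap (0 rose, 1 fell). Of 6 satellite glia markers 2 rose and 2 fell, and of 6 Schwann cell markers 1 rose and 3 fell. None of the endothelial, fibroblast or red cell markers rose, and 1 of 6, 2 of 6 and 1 of 5 fell. By the test given below, 12.3% of all genes tested rose and 13.5% fell. The part of these markers in the results on proteasome genes was not tested. A difference between libraries in base composition touched the members and is described with them below.

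Summed over the 47 members, proteasome transcripts held 87418, 87833 and 87660.4 normalised reads in the NTG libraries and 88809.6, 84914 and 87113 in the vehicle libraries. The NTG values lay within the vehicle range, at 0.429% of all normalised reads in NTG and 0.421% in vehicle. Beneath this level total, 6 members rose and 7 fell in NTG and 34 did not pass (limma-trend on log2(value + 1), Benjamini-Hochberg adjusted p under 0.05 over the 17475 genes tested). The 7 became 4 without NTG replicate 1, NTG replicate 2 or vehicle replicate 2. Of all genes tested 25.8% passed, 12.3% higher and 13.5% lower, so a share of 27.7% among the members is close to the background and is no result about them. All 13 changes were below 1.4-fold. When a fold of at least 1.2 was required in the test, 0 members passed, against 1.79% of all genes, 0.441% higher and 1.35% lower. Tested with edgeR on the recovered reads, 6 members were higher and 5 lower, against 25.5% of all genes, 12.5% higher and 13% lower. With GC content and length adjusted for, as described below, 2 members were higher and 3 lower, against 8.96% of all genes, and 0 of the 6 that rose still passed. The median log2 fold change was 0.03 over the members and 0.00 over all genes tested. The 3 NTG values did not overlap the 3 vehicle values in 24 of 47 members, against 39.7% of all genes, 19.7% higher and 20% lower in NTG.

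**Figure D1:**
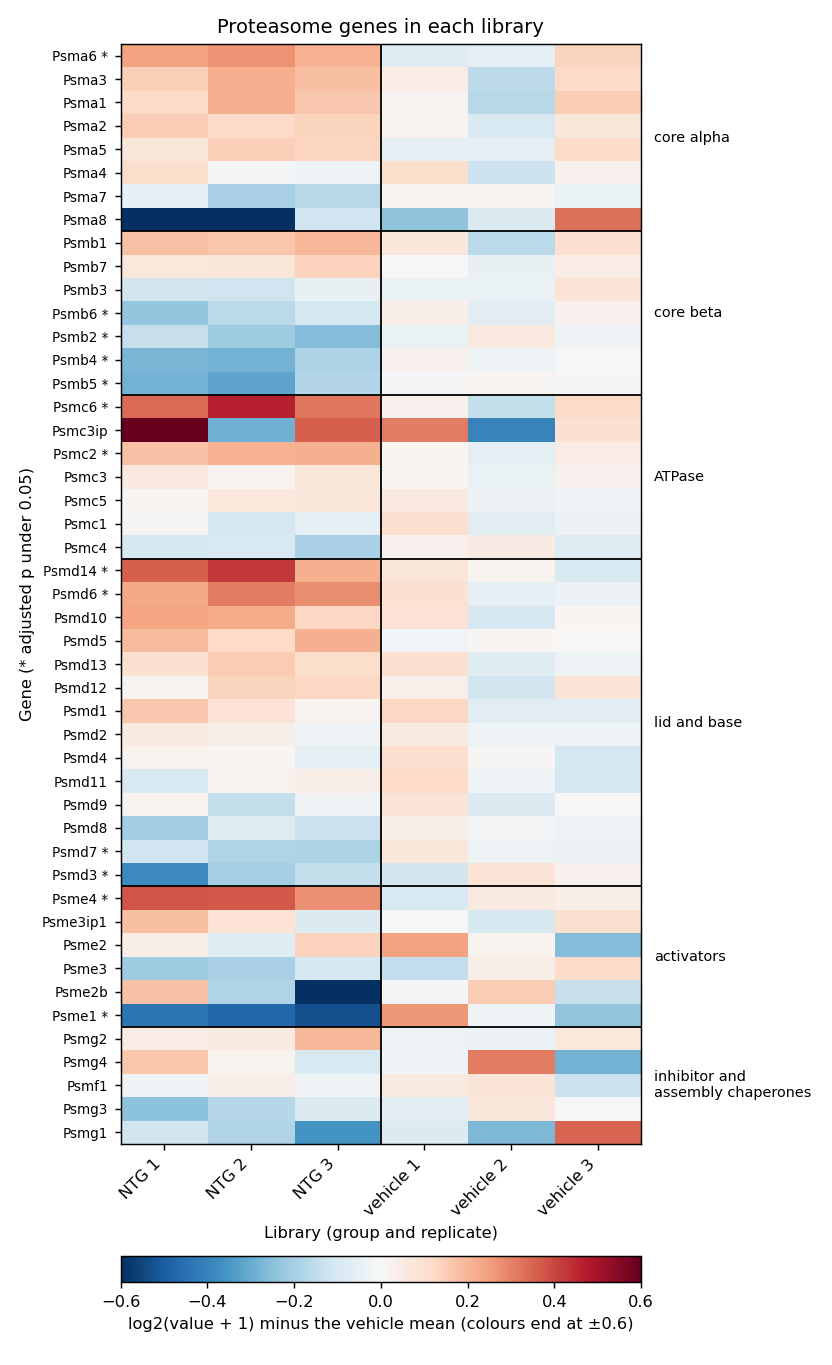
Level of each of the 47 members (rows, by role) in the 3 NTG and 3 vehicle libraries (columns). Colour is log2(value + 1) minus the mean of the vehicle libraries, red above and blue below, ending at ±0.6. Stars mark the 6 members that rose and the 7 that fell. Of the 7 core beta members 4 are starred and lower in NTG, and of the 8 core alpha members only Psma6 is starred.

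Transcripts of the members that rose were poorer in G and C than those of the members that fell. The first 120 coding bases of the pair with the lowest GC content among the members that rose (Psmc6, chr14:45329823-45349074, plus strand, and Psmd14, chr2:61711694-61800376, plus strand) and of the pair with the highest among those that fell (Psmb5, chr14:54614120-54617995, minus strand, and Psmd3, chr11:98682554-98695978, plus strand) show it, with G and C in capitals. They are read from GENCODE M21 transcripts on GRCm38, 5′ to 3′ from the start codon.
Psmc6: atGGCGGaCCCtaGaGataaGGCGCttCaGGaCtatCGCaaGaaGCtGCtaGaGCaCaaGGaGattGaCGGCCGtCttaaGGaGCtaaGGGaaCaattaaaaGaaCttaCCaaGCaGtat
Psmd14: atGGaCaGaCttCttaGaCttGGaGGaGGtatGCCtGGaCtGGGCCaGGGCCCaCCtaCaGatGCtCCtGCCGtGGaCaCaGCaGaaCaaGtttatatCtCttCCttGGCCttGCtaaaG
Psmb5: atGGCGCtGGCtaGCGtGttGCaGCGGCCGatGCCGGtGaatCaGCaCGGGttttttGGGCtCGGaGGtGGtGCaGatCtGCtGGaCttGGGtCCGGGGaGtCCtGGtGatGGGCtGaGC
Psmd3: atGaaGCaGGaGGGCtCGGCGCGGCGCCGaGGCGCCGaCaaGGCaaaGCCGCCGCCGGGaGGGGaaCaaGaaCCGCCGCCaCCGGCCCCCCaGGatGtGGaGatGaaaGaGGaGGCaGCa
These stretches held 57 and 63 G or C bases in Psmc6 and Psmd14, and 76 and 84 in Psmb5 and Psmd3. Over whole transcripts the GC content was 37.0% in Psmc6 and 43.2% in Psmd14, against 56.6% in Psmb5 and 58.3% in Psmd3.

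Of all genes tested 25.8% passed, and in the alpha ring, made of Psma1 to Psma7, 1 gene (14.3%) did. Psma6, one of its structural subunits, had 1639, 1672 and 1605 normalised reads in NTG and 1316, 1334 and 1519 in vehicle. Each NTG library lay above each vehicle library, and the fold change was 0.24 ± 0.07 on the log2 scale (SE, limma adjusted p = 0.0128). With NTG replicate 2 left out the limma adjusted p of Psma6 was 0.0663, and with vehicle replicate 2 left out 0.0629. Psma1, Psma2, Psma3, Psma4 and Psma5 had log2 fold changes of 0.02 to 0.18 and did not pass, and Psma7 had -0.14 ± 0.06 (SE, limma adjusted p = 0.106). The summed level of the ring was 11526, 11503 and 11365 normalised reads in NTG and 10831, 10167 and 11324 in vehicle, with vehicle replicate 3 just under the NTG libraries. With GC content and length adjusted for, as described below, 0 of the 7 genes of the ring passed. Their median log2 fold change was then -0.09, against 0.13 on the deposited values. Psma1, Psma2, Psma3 and Psma4 stood at -0.04, -0.18, -0.09 and -0.16, Psma5 and Psma6 at 0.04 and 0.11, and Psma7 at -0.11. Among the 8 Psma genes, vehicle replicate 2 was the lowest vehicle library in 5, a count without a share over all genes beside it.

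In the beta ring Psmb2, Psmb4, Psmb5 and Psmb6 fell and 0 of 7 rose, with a median log2 fold change of -0.17. Of all genes tested 13.5% fell and 12.3% rose. Once adjusted for GC content and length, as described below, 1 of 7 was lower (Psmb4), against 5.38% of all genes. The median of the ring was then -0.01. Psmb4, a structural beta subunit (chr3:94884324-94886958, minus strand), had 3132, 3113 and 3339 normalised reads in NTG and 3857, 3719.8 and 3797 in vehicle. The groups stood well apart, at 3195 ± 125 in NTG and 3792 ± 69.0 in vehicle (SD, n = 3 each), a log2 fold change of -0.25 ± 0.06 (SE, limma adjusted p = 0.00229). Psmb5, the chymotrypsin-like peptidase and the main target of bortezomib, had 2631, 2572 and 2832 in NTG and 3174, 3241 and 3188 in vehicle (log2 fold change -0.26 ± 0.06, SE, limma adjusted p = 0.00229). Its vehicle libraries agreed closely, and NTG replicate 3 was the NTG library nearest to them. Psmb4 and Psmb5 passed with each library left out in turn, but once adjusted for GC content and length Psmb5 stood at -0.06 (limma adjusted p = 0.561) and did not pass, whereas Psmb4 did.

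Psmb6, the caspase-like peptidase, had 2239.8, 2354 and 2448 normalised reads in NTG and 2705, 2517 and 2684 in vehicle (log2 fold change -0.17 ± 0.06, SE, limma adjusted p = 0.0448). Psmb2 had 1213, 1151 and 1115 in NTG and 1300.0, 1389 and 1318 in vehicle (log2 fold change -0.20 ± 0.07, SE, limma adjusted p = 0.0307). Both were lower in all 3 NTG libraries. Psmb6 missed the threshold without NTG replicate 1 or 2 or vehicle replicate 1 or 3 (limma adjusted p = 0.18, 0.121, 0.111 and 0.113). Psmb2 missed it without NTG replicate 2 or 3 or vehicle replicate 2 (limma adjusted p = 0.108, 0.0995 and 0.112). The trypsin-like peptidase gene Psmb7 did not pass, at 3035 ± 86.2 in NTG and 2848 ± 88.1 in vehicle (SD, n = 3 each; log2 fold change 0.09, limma adjusted p = 0.251). Psmb1 did not pass either, at 2511 ± 29.2 in NTG and 2222 ± 213 in vehicle (log2 fold change 0.18, limma adjusted p = 0.0518). Psmb3 stood at 1733 ± 49.2 in NTG and 1849 ± 90.2 in vehicle (limma adjusted p = 0.304). Of the 3 peptidase genes of the core, Psmb5 and Psmb6 fell on the deposited values and 0 passed once adjusted (Psmb6 0.02, limma adjusted p = 0.889). The groups did not overlap in any of the 7 beta genes, 5 of them lower and 2 higher in NTG, against 39.7% of all genes. The summed level of the beta ring was 16402, 16374 and 17201 normalised reads in NTG and 18000.3, 17400.1 and 18243 in vehicle, a ratio of 0.932. Whether the alpha and beta rings differed in their change was not tested.

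**Figure D2:**
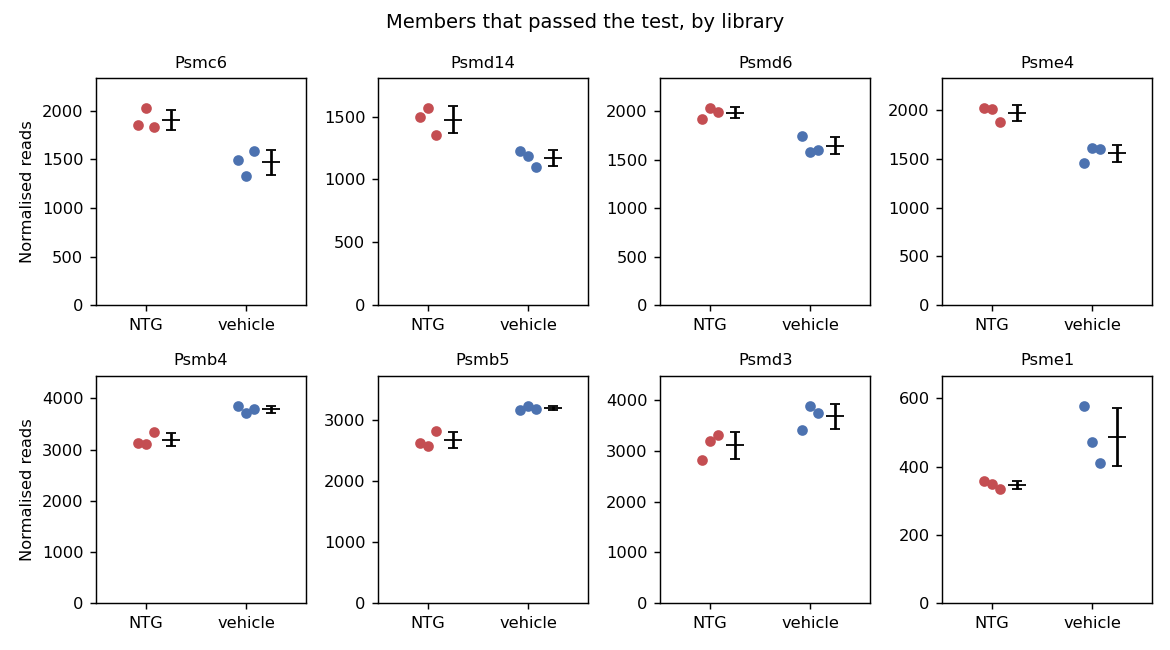
Normalised reads (y axis, from 0) of 8 members that passed the test, in the 3 NTG libraries (red points) and the 3 vehicle libraries (blue points), with mean and SD in black. Psmc6, Psmd14, Psmd6 and Psme4 are higher in each NTG library and Psmb4, Psmb5, Psmd3 and Psme1 lower, with no overlap in any of the 8 panels.

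In the ATPase ring 2 of 6 subunits rose and 0 fell, against 12.3% and 13.5% of all genes tested. Psmc6 had 1857, 2027 and 1828 normalised reads in NTG and 1495, 1329.8 and 1586 in vehicle, a log2 fold change of 0.38 ± 0.07 (SE, limma adjusted p = 0.000655), the largest positive one of the members that passed. Psmc2 had 2942, 3012 and 3015 in NTG and 2627, 2501 and 2688 in vehicle (log2 fold change 0.20 ± 0.06, SE, limma adjusted p = 0.0127). The groups were separate for both genes. The limma adjusted p of Psmc2 was 0.0616 with NTG replicate 2 left out and 0.0676 with vehicle replicate 2 left out, while Psmc6 passed in all 6 such fits. After adjustment for GC content and length, as described below, Psmc6 stood at -0.00 (limma adjusted p = 0.985). Psmc2 then stood at 0.12 (limma adjusted p = 0.2), and neither gene passed. Psmc1, Psmc3, Psmc4 and Psmc5 did not pass, with log2 fold changes of -0.13 to 0.05. The non-subunit Psmc3ip had 23.5 to 49.2 normalised reads in NTG and 21.6 to 36.0 in vehicle, and did not pass (limma adjusted p = 0.6).

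Among the 14 Psmd genes 2 rose and 2 fell, a share of 28.6%, close to the 25.8% of all genes tested. Psmd14 encodes the deubiquitinating metalloprotease of the lid. It had 1498, 1568 and 1355 normalised reads in NTG and 1229, 1186 and 1097 in vehicle (log2 fold change 0.33 ± 0.07, SE, limma adjusted p = 0.00204). Psmd6, a lid scaffold subunit, had 1922, 2033 and 1992 in NTG and 1749, 1583 and 1603 in vehicle (log2 fold change 0.27 ± 0.06, SE, limma adjusted p = 0.00341). Both genes passed with each library left out in turn. After adjustment for GC content and length, as described below, Psmd6 stood at 0.14 (limma adjusted p = 0.161) and did not pass. Psmd3, another lid scaffold subunit, had 2820.1, 3195 and 3327 in NTG and 3409.6, 3897 and 3747 in vehicle (log2 fold change -0.24 ± 0.07, SE, limma adjusted p = 0.0102). Its closest libraries, NTG replicate 3 and vehicle replicate 1, nearly met, and its limma adjusted p was 0.0731 with NTG replicate 1 left out and 0.0737 with vehicle replicate 2 left out.

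Psmd7, the inactive partner of the Psmd14 protease, had 2117, 2034 and 2016 normalised reads in NTG and 2413, 2252 and 2245 in vehicle (log2 fold change -0.16 ± 0.06, SE, limma adjusted p = 0.049). Thus the genes of this heterodimer had fold changes of opposite sign on the deposited values. Once adjusted for GC content and length, as described below, Psmd14 stood at 0.10 (limma adjusted p = 0.39) and did not pass. Psmd7 stood at -0.22 (limma adjusted p = 0.00883). On the deposited values Psmd7 sat at the threshold: it missed it in all 6 fits with a library left out (limma adjusted p = 0.0574 to 0.159) and in edgeR (adjusted p = 0.0608). The ubiquitin receptor gene Psmd4 and the scaffold genes Psmd1 and Psmd2 of the base had log2 fold changes of -0.01, 0.09 and 0.02 and did not pass. Before division by length, Psmd2 had the most reads of all members. It had 8803, 8681 and 8361 normalised reads in NTG and 8807, 8339 and 8307 in vehicle, ranges that overlap. The base assembly chaperones Psmd5, Psmd9 and Psmd10 did not pass either (limma adjusted p = 0.0615, 0.745 and 0.235).

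The activators went separate ways. Psme4, the large activator found mostly in nuclei, had 2021, 2009 and 1879 normalised reads in NTG and 1459, 1614 and 1599.5 in vehicle (log2 fold change 0.34 ± 0.06, SE, limma adjusted p = 0.00066). It was higher in each NTG library and passed with each library left out. After adjustment for GC content and length, as described below, it stood at 0.13 (limma adjusted p = 0.191) and did not pass. It shares 18357 bases of locus with Erlec1 on the opposite strand, which stood at 0.345 times its level, and since the strand setting of the counting is not given in the sources used here, reads from the shared stretch may belong to either gene. Psme1 and Psme2 encode the interferon-inducible alpha and beta subunits of 1 heteromeric activator. Psme1 fell, with 357, 348 and 335 normalised reads in NTG and 579, 473 and 409.8 in vehicle (log2 fold change -0.48 ± 0.11, SE, limma adjusted p = 0.00392), 1.39-fold lower in NTG. Psme2 had 642, 595 and 690.1 in NTG and 741, 635 and 523 in vehicle, with overlapping groups (log2 fold change 0.03 ± 0.11, SE, limma adjusted p = 0.858). Psme3, the nuclear gamma form, stood at 1421 ± 56.7 in NTG and 1602 ± 146 in vehicle (SD, n = 3 each; limma adjusted p = 0.0885).

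Vehicle replicate 1 had the highest value of Psme1, of Psme2 and of the sum of 12 interferon-stimulated genes. That list summed to 3999.7, 3669.9 and 3663 normalised reads in NTG and 10721, 5694 and 3601 in vehicle, with 12 of 12 members in the table. Of the 12, 0 rose and 4 fell, against 12.3% and 13.5% of all genes tested. With GC content and length adjusted for, 0 rose and 1 fell, against 3.58% and 5.38% of all genes. Without vehicle replicate 1 the log2 fold change of Psme1 was -0.35 (limma adjusted p = 0.0256). After adjustment for GC content and length, as described below, Psme1 stood at -0.34 (limma adjusted p = 0.0497). With vehicle replicate 1 left out as well, it stood at -0.22 (limma adjusted p = 0.226) and did not pass. The 8 macrophage markers summed to 2605, 2346 and 2393 normalised reads in NTG and 3345, 3213 and 3037 in vehicle. Of the 8, 0 rose and 3 fell, against 12.3% and 13.5% of all genes tested. After the adjustment 0 macrophage markers rose and 1 fell, against 3.58% and 5.38% of all genes. In such bulk samples, fewer cells of a type and less RNA per cell cannot be told apart, and the part of either list in the fall of Psme1 was not tested. Of the 3 immunoproteasome genes left out of the members, which replace beta subunits in immune cells and under interferon, 2 fell. Of all genes tested 13.5% did. Psmb9 had 88.0, 75.7 and 61.6 normalised reads in NTG and 174, 136 and 105 in vehicle (log2 fold change -0.86 ± 0.21, SE, limma adjusted p = 0.00454) and Psmb10 fell with -0.33 ± 0.09 (SE, limma adjusted p = 0.00722). Psmb8 stood at 198 ± 15.8 in NTG and 316 ± 125 in vehicle and did not pass (limma adjusted p = 0.0789), whereas edgeR gave an adjusted p of 0.0237. Once adjusted for GC content and length as described below, Psmb9 stood at -0.72 (limma adjusted p = 0.0268) and Psmb10 at -0.15 (limma adjusted p = 0.301). With a library left out as well, Psmb9 passed in 2 of 6 fits (limma adjusted p up to 0.152, without NTG replicate 3). Without NTG replicate 1 the limma adjusted p of Psmb10 on deposited values was 0.0625.

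None of the 5 genes of the inhibitor and the assembly chaperones passed, against 25.8% of all genes tested. At an unadjusted p under 0.05 the count among the 5 was also 0, and so was the count in edgeR after adjustment. Psmg3 came closest, with 304, 320.0 and 339.9 normalised reads in NTG and 344, 378 and 360.2 in vehicle (log2 fold change -0.17 ± 0.11, SE, limma adjusted p = 0.263). Psmg1 had 175, 166 and 147 in NTG and 179, 156 and 241 in vehicle (log2 fold change -0.22 ± 0.16, SE, limma adjusted p = 0.354), with vehicle replicate 3 above the rest. Psmf1, the inhibitor, stood at 1038, 1085 and 1041 in NTG and 1094, 1114 and 965 in vehicle. Pomp, the maturation chaperone of the core, whose symbol lies outside the rule, stood at 1832 ± 104 in NTG and 1686 ± 99.7 in vehicle (SD, n = 3 each; limma adjusted p = 0.204).

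Per kilobase of transcript, levels differed among subunits that enter the core in equal number. In the alpha ring they ran from 588 in Psma2 to 2238 in Psma7 normalised reads per kilobase in NTG, and from 538 in Psma2 to 2459 in Psma7 in vehicle. Beta ring levels ran from 1350.0 (Psmb2) to 2979 (Psmb5) in NTG and from 1264 (Psmb1) to 3561 (Psmb5) in vehicle. ATPase subunits ranged from 852 (Psmc6) to 3066 (Psmc3) per kilobase in NTG and from 658 to 2964 in vehicle for the same genes. Psmd2 led the Psmd genes, with 2909.6 in NTG and 2865 in vehicle, and the chaperone Psmd10 was lowest, with 202 in NTG and 177 in vehicle. Median levels were lower for the activators (308 in NTG, 339 in vehicle) and for the inhibitor and assembly chaperones (277 in NTG, 278 in vehicle) than for the beta ring (2617 in NTG, 2455 in vehicle). These levels depend on the 1 transcript taken per gene: Psma2, with a 2911-base transcript and a 702-base coding part, was lowest in the alpha ring per kilobase of transcript, whereas per kilobase of coding sequence in vehicle Psma4 was lowest (1416, against 2231 for Psma2).

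**Figure D3:**
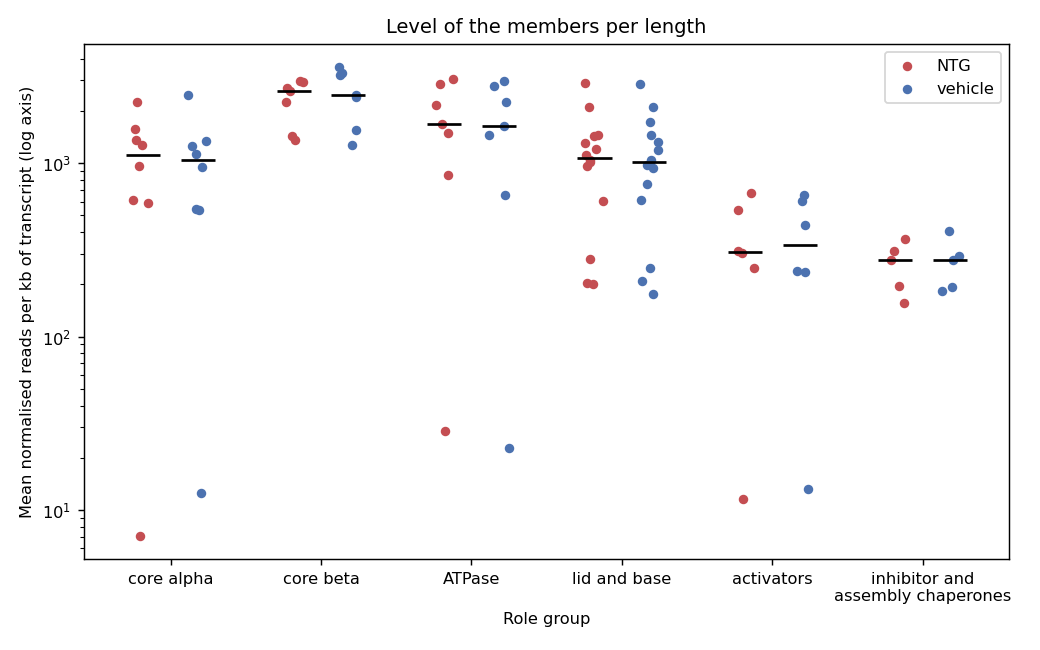
Mean normalised reads per kilobase of transcript (log axis) of each member in NTG (red, left of each pair) and vehicle (blue), by role group, with the median as a bar. Beta and ATPase subunits stand highest, activators and the inhibitor and assembly chaperones lower, and Psma8, Psmc3ip and Psme2b lie far below the other members, under 29 in both groups.

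Fold changes of the members followed transcript GC content. The 6 members that rose had a GC content of 37.0% to 48.7% and the 7 that fell 49.7% to 58.3%, without overlap. Among the 8 Psma genes the median was 44.5% and in the beta ring 52.2%. Spearman's rho between GC content and log2 fold change was -0.61 across the 47 members (Pearson's r -0.46) and -0.75 without Psma8, Psmc3ip, Psme2b and Psme3ip1 (Pearson's r -0.74, n = 43). Within groups rho was -0.71 in the 7 Psmb genes, -0.57 in the 7 Psmc genes and -0.73 in the 14 Psmd genes. Among the 8 Psma genes it was only -0.21 (Pearson's r 0.02). These points share the same 6 libraries and are not independent. Over 14932 protein-coding genes rho was -0.64. Among members with a GC content of 40% to 45%, 8 of 9 had a positive log2 fold change, with a median of 0.18, against 0.24 for all protein-coding genes in that range. Among members at 55% or more, 4 of 6 had a negative one, with a median of -0.17, against -0.23 for all such genes. Regressed on GC content, the deviations of the NTG libraries had slopes of -0.21, -0.16 and -0.08 log2 units per 10 percentage points, and those of the vehicle libraries 0.11, 0.19 and 0.16. Vehicle replicate 2 had the steepest slope of the vehicle libraries. It was also the lowest vehicle library in 24 of the 47 members, and in 6 of the 7 Psmc genes. The share among all genes is not given here, so these counts are no result about the members. A link between its slope and these low values was not tested.

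**Figure D4:**
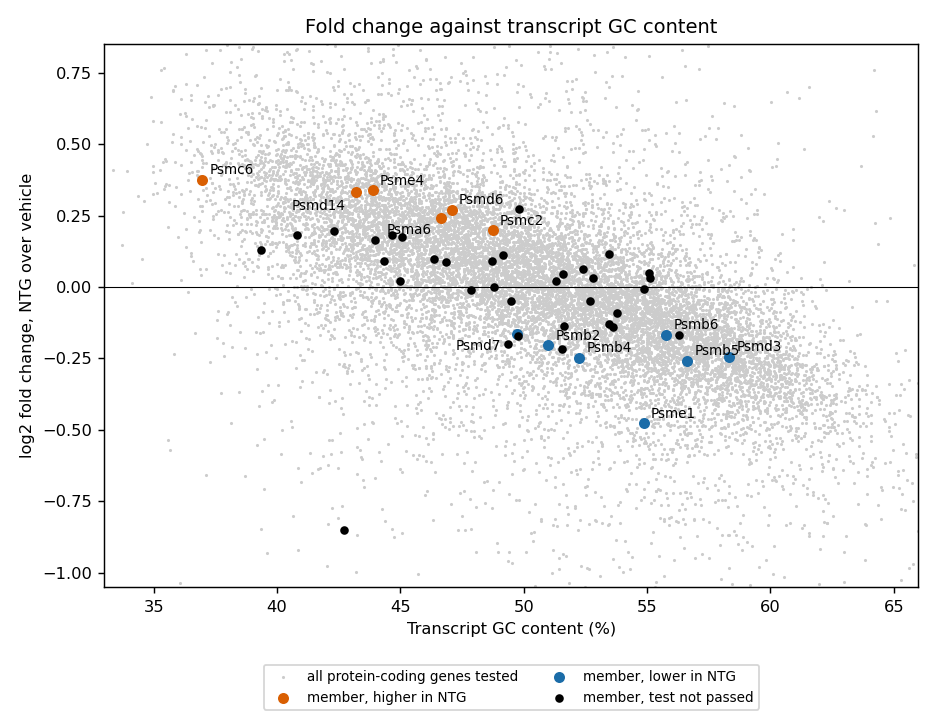
Log2 fold change, NTG over vehicle (y axis), against transcript GC content in percent (x axis), for protein-coding genes (grey) and the members. Members that rose (orange) lie at 37.0% to 48.7% GC and those that fell (blue) at 49.7% to 58.3%. Psmb4, Psmd7 and Psme1 lie below the trend of all genes and passed as lower after the GC and length adjustment as well. With a library left out too, Psme1 passed in only 1 of 6 such fits. Genes beyond the axis limits are not drawn.

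When a smooth function of GC content and transcript length was fitted to every library and subtracted, 2 members were higher and 3 lower in NTG. Of all 16278 genes tested then, 8.96% passed, 3.58% higher and 5.38% lower. None of the 6 members that rose passed any more, and their log2 fold changes were -0.00 to 0.14 (Psmc6 -0.00, Psmd14 0.10, Psmd6 0.14, Psme4 0.13). Of the 7 that fell, Psmb4 (log2 fold change -0.21 ± 0.05, SE, limma adjusted p = 0.00613), Psmd7 (-0.22 ± 0.05, limma adjusted p = 0.00883) and Psme1 (-0.34 ± 0.11, limma adjusted p = 0.0497) passed again. Psmb2 did not pass, at a fold change close to that before (-0.19, limma adjusted p = 0.0682, against -0.20 on deposited values). Psmb5, Psmb6 and Psmd3 were at -0.06, 0.02 and -0.01. Psmc3, an ATPase subunit, passed only after the adjustment (0.18 ± 0.05, limma adjusted p = 0.00956), as did the lid subunit gene Psmd13 (0.20 ± 0.06, limma adjusted p = 0.0285). For Psmc3 the unadjusted values were 5045, 4907 and 5094 normalised reads in NTG and 4892, 4721 and 4935 in vehicle, overlapping groups. With a library left out as well, Psmb4 and Psmd7 passed in all 6 fits, Psmc3 in 5, Psmd13 in 3 and Psme1 in 1. What lies behind the difference in slope between the groups was not tested.

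**Figure D5:**
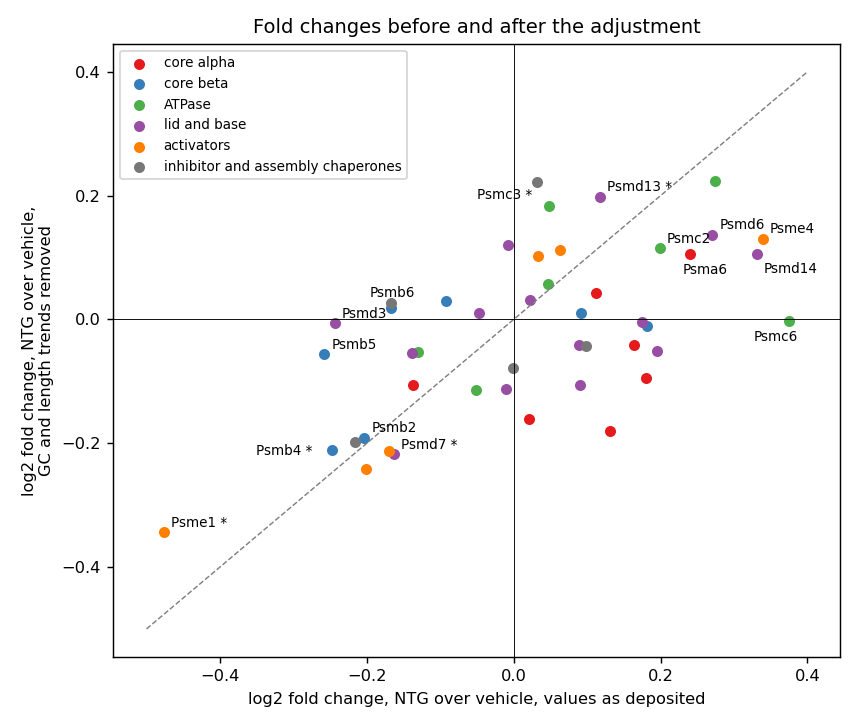
Log2 fold change, NTG over vehicle, on the values as deposited (x axis) and after removal of the GC and length trends (y axis), coloured by role, with the line of equality dashed. Names mark members past the threshold on either axis, and stars those past it after the adjustment. Psmc6 lies near 0 on the y axis and Psmb4, Psmd7 and Psme1 stay below it (Psma8, at -0.85 and -1.09, is not drawn).

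Lists of other genes of the pathway were read from the same fit. Subunits whose symbols lie outside the rule are Adrm1, a ubiquitin receptor of the base, and Sem1, a small lid subunit. Adrm1 had 1572, 1702 and 1831 normalised reads in NTG and 1904, 2282 and 2241 in vehicle (log2 fold change -0.33 ± 0.07, SE, limma adjusted p = 0.00279), and stood at -0.04 once GC and length were adjusted for (limma adjusted p = 0.798). Sem1 stood at 749 ± 84.4 in NTG and 899 ± 105 in vehicle (SD, n = 3 each), with groups that overlapped (log2 fold change -0.26, limma adjusted p = 0.0473; edgeR adjusted p = 0.0697). It missed the threshold without NTG replicate 1 or 2 or vehicle replicate 2 or 3, the highest limma adjusted p being 0.207 without NTG replicate 2. After the adjustment its log2 fold change was -0.64 (limma adjusted p = 0.00628), more than before, the transcript taken for it having a GC content of 37.3%. With a library left out as well, Sem1 missed the threshold without vehicle replicate 2 (limma adjusted p = 0.0555).

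Of 15 tested proteins that bind the proteasome or carry substrates to it, 2 rose and 3 fell. That share of 33.3% compares with 25.8% of all genes tested, 12.3% higher and 13.5% lower. Akirin2, a factor for import of proteasomes into the nucleus in human cells, had the largest change of this list, with 873, 634 and 890.4 normalised reads in NTG and 1373, 1436 and 1461 in vehicle. It was 1.8-fold lower in NTG, all 3 NTG libraries lying far below the vehicle libraries (log2 fold change -0.85 ± 0.11, SE, limma adjusted p = 7.28e-05), and stood at -0.98 once adjusted (limma adjusted p = 0.000162). Ipo9, the importin that works with it, did not pass (log2 fold change 0.11, limma adjusted p = 0.167) and is named here after its value was seen. Usp14, a deubiquitinase of the base, had 2778, 2842 and 2636 in NTG and 2138, 1873 and 1995 in vehicle (log2 fold change 0.46 ± 0.06, SE, limma adjusted p = 3.25e-05), and 0.14 after the adjustment (limma adjusted p = 0.115). Ecpas, which links proteasomes to membranes and tethers core to cap, had 4668, 4616 and 4386 in NTG and 3783, 3511 and 3369.8 in vehicle (log2 fold change 0.36 ± 0.06, SE, limma adjusted p = 0.000129), and 0.15 after it (limma adjusted p = 0.0487).

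Ubqln2, a shuttle gene whose product brings ubiquitinated proteins to the proteasome, had 2163, 2297 and 2678 normalised reads in NTG and 2717, 3125 and 3249.8 in vehicle (log2 fold change -0.35 ± 0.08, SE, limma adjusted p = 0.0037). The groups did not overlap, and it stood at -0.37 after the adjustment (limma adjusted p = 0.0462). It is named after its value was seen. After the adjustment 1 of the 15 was higher (Ecpas) and 5 were lower, among them Akirin2, Ubqln2, Txnl1 and Zfand5, of which Txnl1 and Zfand5 are named after their values were seen. Of all genes tested 3.58% were then higher and 5.38% lower. With a library left out as well, Ecpas passed in 1 of 6 fits (limma adjusted p up to 0.168, without NTG replicate 2) and Ubqln2 in 2 (up to 0.187, without NTG replicate 2), while Akirin2, Txnl1 and Zfand5 passed in all 6.

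Proteasome genes are induced together by Nfe2l1, a membrane-bound transcription factor that Ngly1 and Ddi2 help to activate and that binds antioxidant response elements with small Maf partners. Of 16 regulators listed 1 rose and 4 fell, a share of 31.25% against 25.8% of all genes tested. Nfe2l1 itself, named after its value was seen, stood at 15026 ± 585 normalised reads in NTG and 15196 ± 425 in vehicle (SD, n = 3 each; limma adjusted p = 0.835). Ngly1 had 990.0, 1019.6 and 961 in NTG and 782, 807 and 828 in vehicle (log2 fold change 0.30 ± 0.07, SE, limma adjusted p = 0.0046). Mafg, Keap1 and Stat3 fell by 0.26, 0.23 and 0.15 on the log2 scale (limma adjusted p = 0.00329, 0.0099 and 0.0399), and so did Maff, named after its value was seen, by 0.54 (limma adjusted p = 0.0491). Keap1 missed the threshold without NTG replicate 1 (limma adjusted p = 0.0556). Stat3 missed it without NTG replicate 1 or 2 or vehicle replicate 2 or 3 (limma adjusted p at most 0.16), and Maff in every fit with a library left out but that without vehicle replicate 1 (limma adjusted p at most 0.217). Once adjusted for GC and length, 0 of the 16 passed, against 8.96% of all genes.

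Promoter sequence was available in the RefSeq table (GRCm38.p6) for 39 of the 47 members, and the 250 bases before the start were searched on both strands for 9 short motifs chosen after earlier looks at the data. The antioxidant response element pattern TGANNNNGC was in 16 of 39 members, against 41.4% of 12001 protein-coding genes, and its stricter form TGACNNNGC, a subset of it, in 5 (12.8%), against 13.9%. The stricter element in a member that rose, one that fell and one that did not pass, in capitals with 12 flanking bases, reads as follows, 5′ to 3′ on the strand of the element.
Psmc6, chr14:45329585-45329617, minus strand: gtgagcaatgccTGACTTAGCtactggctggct
Psmb5, chr14:54618022-54618054, minus strand: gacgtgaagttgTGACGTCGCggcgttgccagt
Psmd9, chr5:123228147-123228179, plus strand: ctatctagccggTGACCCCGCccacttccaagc
The ETS core TTCCGG was in 18 of 39 members (46.2%), against 22.6% of all. CCAAT was in 14 of 39 members and 4800 of 12001 genes, and GGGCGG in 56.4% and 61.0%. A fully spelled form, TGACTCAGC, was in 0 members and 0.45% of all, the palindrome of nuclear respiratory factor in 2.56% and 1.7%, TATAAA in 7.69% and 8.49%, and GCATGC in 10.3% and 9.42%. A match is a description of letters in this window only.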

How the data were processed

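The authors deposited 1 table of normalised gene values for 6 libraries, a signal whose low values are read counts over 1 factor per library: 100% of values were whole multiples of 1 step per library (tolerance 0.01). Poly-T selected RNA was made into strand-specific libraries, per the labels' protocols. FastQC, HISAT2 and the build GRCm38 are named in the submitters' processing notes. How reads were counted and normalised, and with which strand setting, is not given in the sources used here. Overlapping or near-identical genes can share reads. Of 46 members whose coding sequence was compared with all GENCODE M21 transcripts (BLAST 2.17.0), 8 had a pseudogene at 95% identity or more over 150 bases, among them Psmb5.

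An edgeR count test was planned for raw counts. As the values were normalised, the planned replacement was used: robust limma-trend (two-sided) on log2(value + 1) of the 17475 genes that reached a value of 1 in 3 or more libraries, Benjamini-Hochberg adjusted over all of them. GC content and length came from 1 GENCODE transcript per gene (93.2% of genes matched; APPRIS principal, then longest), and each library's trend was removed with mgcv. No library was a duplicate: within groups the chi-square over its degrees of freedom was 4.10 to 7.99. Fold changes are NTG over vehicle. Members past the threshold, the closest members of groups where none passed, the highest and lowest per length, and up to 4 genes of each further list were named, other names being marked. The values of 1 gene of these lists are not reported here. Members, lists and tests were chosen with earlier results of these data known. The scripts were tested on simulated data with 200 changed genes. No trend over GC content or length was built into these data, so they cannot show how the fits behave under such a trend. Alternatives used edgeR 4.0.16 and DESeq2 1.42.0. Other tools were mgcv 1.9.3, limma 3.58.1, R 4.3.3, Python 3.11.15, pandas 2.3.3 and matplotlib 3.10.9.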

Additional observations from a re-analysis of the deposited data

How the results depend on the processing

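Across 19 other settings and 6 added after seeing the data (the GC and length adjustment with each library left out), the counts of members higher and lower stayed within 1.5 times the 6 and 7 reported under other pseudocounts, filters, scalings, edgeR, DESeq2 and limma-voom. A minimum fold of 1.2 left 0 higher and 0 lower, and 313 of all genes against 4512. The GC and length adjustment left 2 higher, 3 lower, a median log2 fold change of -0.0104 against 0.0318, and 1458 of all genes. Without 1 library the counts were 4 to 9 higher, 4 to 6 lower, a median of 0.01 to 0.05 and 2946 (without NTG replicate 2) to 4678 of all genes. With the adjustment as well, 0 to 2 members were higher and 2 to 4 lower. All genes then numbered 1075, 673 and 1034 without NTG replicates 1, 2 and 3, and 1506, 926 and 1604 without vehicle replicates 1, 2 and 3. The members' median was then -0.0369 and -0.0219 without NTG replicates 2 and 3, and -0.0279 and -0.0343 without vehicle replicates 1 and 2.

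Same-numbered libraries did not deviate together (correlations 0.0041, -0.033 and -0.025), but with 3 libraries a group this cannot show whether the numbers pair them. With the replicate number as a block 8 members were higher and 8 lower, and with the block and the adjustment 2 and 6, a median of -0.0104 and 2017 of all genes. Some signs turned under the adjustment. With or without the block, Psmc6 stood at -0.0032 and Psmb6 at 0.0183, and Psma2 at -0.18 (limma adjusted p = 0.0253 with the block). Psmb6 stood at 0.0445 and 0.0186 without NTG replicates 1 and 3, and at 0.0395 and 0.030 without vehicle replicates 1 and 3. Psmc6 stood at -0.0513 and -0.0036 without NTG replicates 2 and 3, and at -0.0109 and -0.0343 without vehicle replicates 1 and 2. Psmd3 stood at 0.0397 without NTG replicate 1, and at 0.0276 and 0.0094 without vehicle replicates 2 and 3. The cause was not tested. Depth limits the members of low level most: the standard error of the log2 fold change was 0.46 in Psma8 and 0.52 in Psme2b.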
